A study of Mus musculus with 24 samples.

Results

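Embryoid bodies (EBs) are floating aggregates in which embryonic stem cells leave self-renewal and start to differentiate. Here the first day of that change was followed in a mouse line that lacks its own EED and carries the form labelled N-KR EED. Of the 24 libraries of the series, 4 belong to this comparison: 2 of KO+N-KR EED at EB day 1 (1 of their titles writes N-KREED) and 2 titled EED KO+N-KR EED+3i. They were taken by their titles, with earlier results of these data known, and all genes past a filter on low counts were tested.

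The series measured poly(A) RNA in C57BL/6 embryonic stem cells of 4 lines, each in 3 states (3i, EB day 1 and EB day 2) with 2 libraries per group. The line called KO+N-KR here was grown with 800 nM 4-hydroxytamoxifen, the agent used to delete the conditional Eed allele, and its genotype field names the EED knockout alone. The other 3 lines are f/f, labelled wild type and not given tamoxifen, the EED knockout (KO) and the knockout with wild-type EED (KO+WT), the last 2 given tamoxifen as KO+N-KR was. Per the labels' protocols, stem cells were kept in serum and LIF on feeder layers of mouse embryonic fibroblasts. The labels spell out neither N-KR nor 3i. The sources used here do not give what drives the re-expressed EED or whether a line is a single clone. In a comparison with f/f, genotype, tamoxifen and line history cannot be told apart, and among the other lines genotype and line history cannot.

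EED is a core subunit of Polycomb repressive complex 2 (PRC2), which methylates histone H3 at lysine 27 and keeps developmental genes silent. SKP1A is a subunit of SCF ubiquitin ligases, which mark proteins for the proteasome, and the series title links it to the loss of PRC2 protein. On leaving the naive state, mouse stem cells lose a set of naive transcription factors, gain formative genes and the de novo DNA methyltransferases, and keep Pou5f1, before any germ layer is formed.

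The 4 libraries held 12006492 and 8552602 counts at 3i and 12734358 and 8264909 counts at day 1. In every group of the series the spread between the 2 libraries was 1.10 to 1.18 times the binomial variance, close to sampling noise, and the labels do not say that they came from separate cultures, so they were summed and counted as 1 sample. Each state of KO+N-KR therefore has 1 sample. Its p-values come from edgeR's quasi-likelihood test with Benjamini-Hochberg adjustment over 15558 genes, whose spread is how evenly the state changes recurred over the 9 samples of the other 3 lines. They assume that KO+N-KR varies as those lines do, and a threshold of 0.05 was used. Fold changes are log2 values of day 1 over 3i ± SE, and levels are CPM (counts scaled to library size, with TMM factors), given per library.

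Eed itself, counted over the whole gene, had 172 and 167 CPM at 3i and 182 and 183 CPM at day 1, a log2 fold change of 0.11 ± 0.17 that did not pass (edgeR adjusted p = 0.642). Which part of the gene was deleted is not given in the sources used here. At 3i and day 1, the KO samples had 138 and 174 CPM and the f/f samples 175.4 and 219.5 CPM. The KO+WT samples had 386 and 372 CPM, well above KO+N-KR. The reads of this gene thus did not set KO+N-KR clearly apart from KO, and the reason for its lower level than in KO+WT was not tested. Skp1a had 369 and 370 CPM at 3i and 367 and 365 CPM at day 1. Its log2 fold change of -0.01 ± 0.09 did not pass (edgeR adjusted p = 0.971).

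From 3i to day 1, 3020 genes rose (19.4% of those tested) and 3043 fell (19.6%), and of these 1071 and 1485 did so by at least 2-fold. The shares of 19.4% and 19.6% are the backgrounds for all counts of list members called below. In the other 3 lines, which share no sample with KO+N-KR, 4376 genes (28.1%) rose and 4633 (29.8%) fell (57.9% in all), a split that became 3523 and 5663 with library totals as the only scaling. The fit of those 3 lines has 3 samples per state and so smaller SEs (0.09 for Jarid2, against 0.15 in KO+N-KR). The counts therefore do not show that fewer genes changed in KO+N-KR. The median log2 fold change over all genes tested was -0.02 in KO+N-KR, and -0.08 with library totals as the only scaling. Its near-even split thus depends on the scaling too. By a rule of size (a change of 2-fold or more, and 5 CPM or more in whichever state was higher), 671 genes (4.31%) were higher and 977 (6.28%) lower at day 1, and 667 and 967 of these also passed the test. The same rule of size called 3.5% higher and 4.88% lower in f/f, 3.23% and 4.28% in KO, and 3.63% and 6.05% in KO+WT. With library totals as the only scaling, the rule called 609 genes higher and 1086 lower in KO+N-KR.

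The day 1 changes of KO+N-KR ran the same way as those of the other lines. Of the 671 genes higher by size, 665 (99.1%) were also higher in each of f/f, KO and KO+WT, and of the 977 lower, 974 (99.7%) were also lower in each. At least 2-fold in all 4 lines were 347 (51.7%) and 465 (47.6%) of them, while 103 (15.4%) and 164 (16.8%) reached the size rule in none of the other 3. These genes were picked for their size in KO+N-KR, so that their medians there, 1.47 and -1.47, exceed those in the other lines (1.28 and -1.29 in f/f, 1.23 and -1.15 in KO, 1.34 and -1.40 in KO+WT) is fixed in part by the choice. Read from the other side, 85.3%, 84.7% and 87.1% of the genes higher by size in f/f, KO and KO+WT, and 80.8%, 84.1% and 78.2% of those lower, were also called in KO+N-KR.

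Across 11048 genes with at least 5 CPM in 1 of the 2 KO+N-KR samples, Pearson's r between its log2 ratios and those of another line was 0.943 for f/f, 0.931 for KO and 0.952 for KO+WT. These are correlations across genes, which are not independent replicates, and they are given as a description. The SD of the log2 ratios over those genes was 0.867 in KO+N-KR, against 0.791 in f/f, 0.748 in KO and 0.835 in KO+WT. The scatter of KO+N-KR against the mean of the other lines places Klf4, Fos, Acta2, Dnmt3a, Myc and Vrtn near the diagonal and Chac1, Vegfa and Igfbp2 below it.

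**Figure D1:**
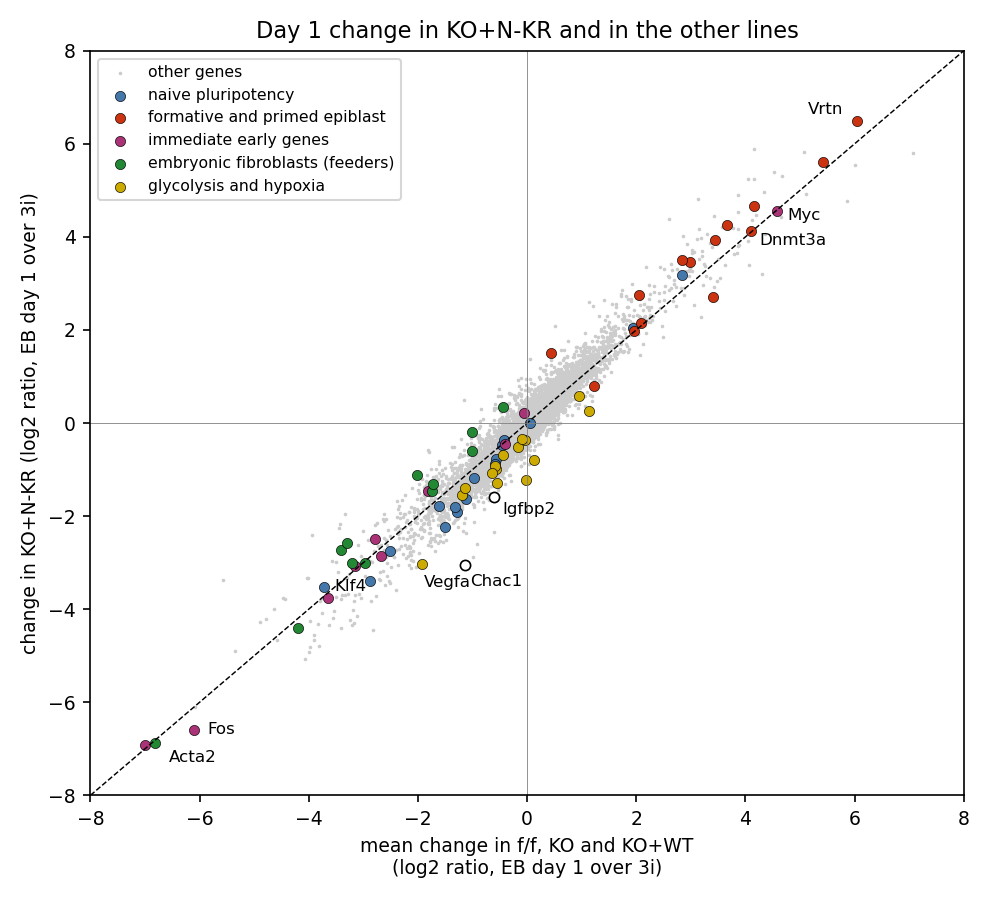
Each point is 1 of 11048 genes, with the mean log2 ratio of day 1 over 3i in f/f, KO and KO+WT on the x axis and the log2 ratio in KO+N-KR on the y axis. The dashed line marks equal change. Coloured points are members of 5 gene lists and open circles are Chac1 and Igfbp2, and most genes lie along the line, with the glycolysis and hypoxia genes below it.

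The naive pluripotency factors fell together. Of 16 listed genes, all tested, 12 fell, 2 rose and 2 did not pass, and the list's summed level went from 4961 CPM at 3i to 2156 CPM at day 1. The median log2 ratio of the list was -1.41 in KO+N-KR, against -0.86 in f/f, -0.67 in KO and -1.36 in KO+WT.

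Klf4, a naive transcription factor, had 518 and 524 CPM at 3i and 44.7 and 45.8 CPM at day 1. The day 1 libraries were far below the 3i libraries, a log2 fold change of -3.52 ± 0.11 (edgeR adjusted p = 2.37e-08), and the ratios in the other lines were -3.58 in f/f, -3.81 in KO and -3.77 in KO+WT. Tbx3, a T-box factor of naive cells, had 458 and 436 CPM at 3i and 42.3 and 42.7 CPM at day 1 and had a log2 fold change of -3.39 ± 0.31 (edgeR adjusted p = 1.87e-05). Tfcp2l1, which acts in the same network downstream of LIF, had 973 and 958 CPM at 3i and 146 and 140 CPM at day 1, and its log2 fold change was -2.74 ± 0.33 (edgeR adjusted p = 9.2e-05). Nanog was less reduced and kept a substantial level. It had 523 and 506 CPM at 3i and 152 and 146 CPM at day 1, a log2 fold change of -1.77 ± 0.21 (edgeR adjusted p = 7.85e-05), and Esrrb, an orphan nuclear receptor of the same network, had 1023 and 1027 CPM at 3i and 446 and 450 CPM at day 1 (-1.19 ± 0.18, edgeR adjusted p = 0.000375). Tcl1, Prdm14, Nr5a2, Dppa3, Klf5, Klf2 and Tdh also fell, with log2 fold changes from -2.23 (Tcl1) to -0.37 (Tdh), of which Klf2 and Klf5 did not pass without the f/f samples (edgeR adjusted p = 0.0790 and 0.0944) and Klf2 also not without replicate 1 (0.0559).

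The 2 naive genes that rose were Gbx2 and Nr0b1. Gbx2, a homeobox gene, had 6.35 and 6.5 CPM at 3i and 58.5 and 59.4 CPM at day 1, a log2 fold change of 3.20 ± 0.20 (edgeR adjusted p = 1.57e-06), and was back near its 3i level at day 2, with a log2 ratio of day 2 over 3i of 0.73. Nr0b1 went from 67.7 and 63 CPM at 3i to 267 and 270 CPM at day 1 (2.04 ± 0.22, edgeR adjusted p = 4.4e-05), and its day 2 ratio was 0.05. Both had day 1 ratios near those of the other lines, which were 3.04 in f/f, 2.98 in KO and 2.48 in KO+WT for Gbx2 and 2.23 in f/f, 2.02 in KO and 1.57 in KO+WT for Nr0b1. Zfp42 had 131 and 125 CPM at 3i and 94.6 and 88.5 CPM at day 1 (log2 fold change -0.48 ± 0.18, edgeR adjusted p = 0.0536) and Fgf4 354 and 337 CPM at 3i and 342 and 347 CPM at day 1 (edgeR adjusted p = 0.992), and neither passed. Zfp42 did pass in edgeR without replicate 2, KO, KO+WT or day 2, without the filter or with library totals alone (adjusted p from 0.00692 to 0.0375).

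Genes of the formative and primed epiblast showed the mirror image. Of 15 listed, all tested, 14 rose and 13 of these met the 2-fold size rule, and their summed level went from 223 to 2350 CPM. The list's median log2 ratio was 3.50 in KO+N-KR, against 3.01 in f/f, 3.14 in KO and 3.24 in KO+WT.

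Pou3f1, a POU factor of the formative state, had 4.21 and 5.01 CPM at 3i and 119 and 115 CPM at day 1 and rose by 4.70 ± 0.22 on the log2 scale (edgeR adjusted p = 2.48e-07). Otx2, a homeobox factor that redirects POU5F1 to formative enhancers, had 13.3 and 11.5 CPM at 3i and 81.8 and 83 CPM at day 1 and a log2 fold change of 2.72 ± 0.33 (edgeR adjusted p = 0.0001). The ratios of Otx2 in the other lines were 3.76 in f/f, 3.19 in KO and 3.24 in KO+WT, all above that of KO+N-KR, whose 3i level was the highest of the 4 lines (12.4 CPM, against 5.97 in f/f, 9.44 in KO and 9.9 in KO+WT). The difference from the other lines did not pass (unadjusted p = 0.108 in edgeR's test of the difference). Vrtn, which encodes a DNA-binding protein first known from vertebral number, was almost silent at 3i. It had 0.247 and 0.342 CPM at 3i and 34 and 33.9 CPM at day 1 and rose by 6.87 ± 0.37 (edgeR adjusted p = 4.34e-07). Lef1, a transcription factor of the WNT pathway, had 2.39 and 0.912 CPM at 3i and 36.5 and 33.8 CPM at day 1 and rose by 4.33 ± 0.48 (edgeR adjusted p = 5.42e-05).

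Fgf5, the textbook marker of the primed epiblast, had 3 reads in the summed 3i sample and 234 at day 1. That is a ratio of 79.6 (95% interval 26.9 to 389, counting error only), and its libraries stood at 11.7 and 10.8 CPM at day 1. Wnt8a, a WNT ligand, had no read at 3i and 40 at day 1, at least 13.6-fold higher when the summed 3i sample is set to a floor of 3 reads. Sox3, Tcf15, Sall2, Sox4, Zic2 and Cdh2 rose with log2 fold changes from 1.53 (Cdh2, which encodes N-cadherin) to 3.60 (Sox3). Foxd3 was the exception, with 52.5 and 43.1 CPM at 3i and 87.1 and 80.4 CPM at day 1, a log2 fold change of 0.81 ± 0.41 that did not pass (edgeR adjusted p = 0.14).

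The enzymes that write new DNA methylation were among the genes that gained most. Dnmt3a, a de novo methyltransferase, had 43.9 and 44 CPM at 3i and 780 and 752 CPM at day 1 and rose by 4.14 ± 0.28 (edgeR adjusted p = 2.47e-06). Dnmt3b had 65.1 and 64.2 CPM at 3i and 988 and 965 CPM at day 1 (3.93 ± 0.36, edgeR adjusted p = 1.87e-05), and Dnmt3l, their catalytically inactive partner, 208 and 205 CPM at 3i and 1012 and 1018 CPM at day 1 (2.30 ± 0.22, edgeR adjusted p = 2.4e-05). In all 3 genes both day 1 libraries lay far above both 3i libraries. The maintenance enzyme Dnmt1, with 392 and 382 CPM at 3i and 389 and 393 CPM at day 1, and its recruiting factor Uhrf1, with 514 and 480 CPM at 3i and 523 and 501 CPM at day 1, did not pass (edgeR adjusted p = 0.893 and 0.715). Of the 10 listed DNA methylation genes, 6 rose and none fell, with a median log2 ratio of 0.39.

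General pluripotency genes were kept or raised at the same time. Of 11 listed, all tested, 9 rose, 1 fell and 1 did not pass, with a median log2 ratio of 1.08. Pou5f1, which encodes OCT4, had 986 and 953 CPM at 3i and 1462 and 1428 CPM at day 1 (0.58 ± 0.08, edgeR adjusted p = 0.000252), while Sox2, its partner factor, fell modestly from 870 and 863 CPM to 644 and 658 CPM (-0.41 ± 0.11, edgeR adjusted p = 0.0141). Dppa2, a chromatin factor of early embryos, had 34.2 and 36.5 CPM at 3i and 162 and 163 CPM at day 1 (2.22 ± 0.13, edgeR adjusted p = 7.76e-07), and its partner Dppa4 had 71.8 and 63.2 CPM at 3i and 206 and 215 CPM at day 1 (1.63 ± 0.11, edgeR adjusted p = 2.91e-06). Utf1 and Lin28a, the latter an RNA-binding protein that blocks let-7 maturation, rose by 2.11 and 1.41 on the log2 scale. Sall4 had 283 and 298 CPM at 3i and 278 and 268 CPM at day 1 and did not pass.

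**Figure D2:**
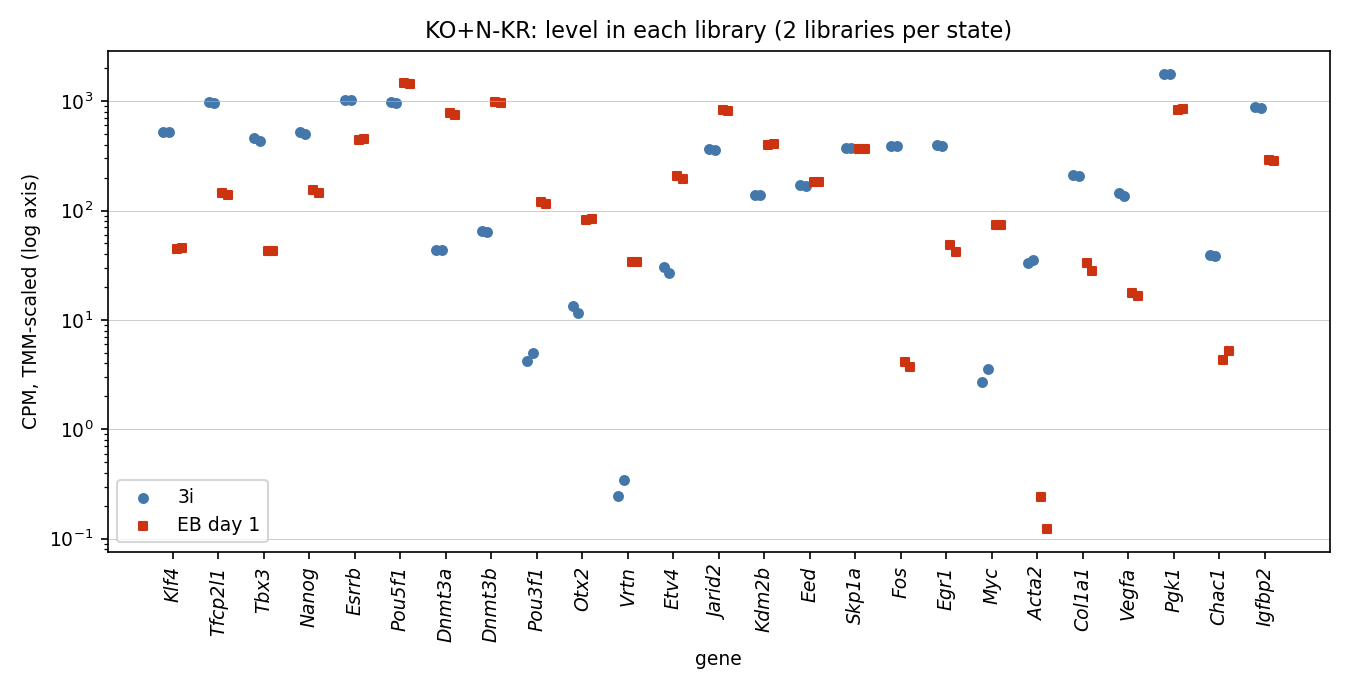
The y axis gives the level of 25 genes in CPM on a log axis in each KO+N-KR library, with circles for the 2 libraries at 3i and squares for the 2 at EB day 1. The 2 libraries of a state nearly coincide except at the lowest levels, Klf4, Tbx3 and Fos drop, Dnmt3a, Dnmt3b and Vrtn climb, and Eed and Skp1a show no change that passed.

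Signalling readouts moved in opposite directions by pathway. FGF-ERK feedback genes, which are induced by ERK and damp it, rose: 10 of 14 passed upward and none downward, with a median log2 ratio of 1.24 (1.55 in f/f, 1.10 in KO, 0.79 in KO+WT). Etv4, an ETS factor downstream of FGF, had 30.4 and 27.1 CPM at 3i and 206 and 193 CPM at day 1 and rose by 2.80 ± 0.13 (edgeR adjusted p = 2.48e-07). Dusp6, the phosphatase that inactivates ERK, had 27.3 and 23.1 CPM at 3i and 140 and 130 CPM at day 1 (2.42 ± 0.31, edgeR adjusted p = 0.000151), and Spry4, a Sprouty inhibitor, 21.7 and 19.6 CPM at 3i and 158 and 149 CPM at day 1 (2.90 ± 0.17, edgeR adjusted p = 8.04e-07). Etv1, Phlda1 and Dusp4 rose by 3.57, 3.02 and 2.67, whereas Spry2, with 126 and 127 CPM at 3i and 153 and 148 CPM at day 1, did not pass (edgeR adjusted p = 0.288).

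Immediate early genes, transcribed within minutes of growth factor signals, mostly fell. Of 12 listed, 11 were tested, 7 fell and 2 rose, with a median log2 ratio of -2.49 (-1.76 in f/f, -2.60 in KO, -3.32 in KO+WT). Fos, an AP-1 subunit, had 390 and 388 CPM at 3i and 4.09 and 3.68 CPM at day 1, a log2 fold change of -6.62 ± 0.46 (edgeR adjusted p = 2.72e-06), and Fosb went from 42.6 and 38.9 CPM to 0.321 and 0.123 CPM (-7.36 ± 0.92, edgeR adjusted p = 0.000123). Egr1, a zinc finger factor, had 394 and 386 CPM at 3i and 48.6 and 41.9 CPM at day 1 (-3.08 ± 0.49, edgeR adjusted p = 0.000603). Myc went the other way, with 2.72 and 3.53 CPM at 3i and 74.1 and 73.2 CPM at day 1 (4.59 ± 0.38, edgeR adjusted p = 9.46e-06) and ratios of 5.46 in f/f, 4.48 in KO and 3.78 in KO+WT. Fosl1 also rose (1.84 ± 0.47, edgeR adjusted p = 0.00926), a call that was lost without replicate 1 (0.112).

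Targets of JAK-STAT3, the pathway through which LIF acts, fell in 6 of 10 cases and rose in none (median log2 ratio -0.81). For this list and the next, the backgrounds over all genes were 19.4% higher and 19.6% lower. Socs3, the feedback inhibitor of that pathway, had 160 and 144 CPM at 3i and 8.75 and 9.7 CPM at day 1 (-4.06 ± 0.34, edgeR adjusted p = 9.46e-06), and Stat3 itself had 123 and 123 CPM at 3i and 45.6 and 48.5 CPM at day 1 (-1.39 ± 0.14, edgeR adjusted p = 2.84e-05). YAP-responsive genes fell in 5 of 7 tested cases and rose in 1 (median -1.42), among them Cyr61 with 167 and 158 CPM at 3i and 21.8 and 18.5 CPM at day 1 (-2.99 ± 0.35, edgeR adjusted p = 8.49e-05) and Ctgf with 176 and 181 CPM at 3i and 39.3 and 40.9 CPM at day 1 (-2.15 ± 0.44, edgeR adjusted p = 0.00274). Both encode secreted matrix proteins that fibroblasts also make.

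Other pathways had members on both sides. Their counts are small and are to be read against backgrounds of 19.4% higher and 19.6% lower over all genes. WNT feedback genes gave 3 higher and 2 lower of 11 tested, BMP and Id genes 2 and 2 of 12, Nodal pathway genes 2 and 3 of 11 and Notch pathway genes 1 and 4 of 11. Bmp4, a BMP ligand, had 2.56 and 2.28 CPM at 3i and 12.3 and 11.9 CPM at day 1 (2.32 ± 0.42, edgeR adjusted p = 0.00133), and Id1, a BMP target, 4.62 and 5.24 CPM at 3i and 25.4 and 22.5 CPM at day 1 (2.32 ± 0.30, edgeR adjusted p = 0.000137). Hes1, a repressor downstream of Notch, fell from 63.6 and 69.8 CPM to 14.1 and 13.5 CPM (-2.25 ± 0.30, edgeR adjusted p = 0.000171). Axin2, a feedback gene of canonical WNT signalling, had 17.7 and 17.7 CPM at 3i and 14.4 and 16.2 CPM at day 1 and did not pass (edgeR adjusted p = 0.537), nor did Nodal, with 82 and 74.7 CPM at 3i and 80.4 and 81 CPM at day 1 (edgeR adjusted p = 0.809). Lefty2, the secreted Nodal antagonist, fell from 151 and 146 CPM to 60.9 and 66.6 CPM (-1.23 ± 0.27, edgeR adjusted p = 0.00427).

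Most tested genes of the lineage lists did not pass, except in the trophoblast list. The backgrounds for these lists are 19.4% higher and 19.6% lower over all genes. Of 13 primitive streak and mesendoderm genes 10 were tested, 1 rose and 3 fell. Eomes, a T-box factor of the streak, went from 39.3 and 32.7 CPM to 11.7 and 14 CPM (-1.52 ± 0.26, edgeR adjusted p = 0.000849), and Gsc, an organizer gene, from 47 reads to none, at least 15.4-fold lower. Endoderm genes gave 2 higher and 2 lower of 18, with a summed level of 1889 CPM at 3i and 1570.3 CPM at day 1. Lama1, a laminin chain of basement membranes, fell from 227 and 230 CPM to 61.1 and 57.6 CPM (-1.93 ± 0.18, edgeR adjusted p = 1.94e-05), and Cubn, an endocytic receptor, rose from 14.1 and 12.2 CPM to 59.6 and 58.8 CPM (2.16 ± 0.23, edgeR adjusted p = 4.29e-05). The other 14 did not pass. Of 16 mesoderm genes 14 were tested, 5 rose and 1 fell, and the list's summed level was 13.5 CPM at 3i and 29.7 CPM at day 1.

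Among 13 neuroectoderm genes 8 were tested and Pax6, an eye and forebrain regulator, was the 1 that rose, from no read to 50, at least 17.0-fold higher. Sox1 and Nes, the standard early neural markers, had 9.82 and 10.6 CPM at 3i and 6.82 and 6.87 CPM at day 1 and 13.9 and 13.1 CPM at 3i and 10.3 and 11.1 CPM at day 1, and neither passed. Trophoblast genes gave 2 higher and 4 lower of 8 tested out of 10. Tfap2c, shared by trophoblast, germ cells and naive cells, fell from 103 and 96.4 CPM to 19.1 and 16.2 CPM (-2.47 ± 0.26, edgeR adjusted p = 3.51e-05). Krt8, a keratin of simple epithelia, had 14.4 and 13 CPM at 3i and 26.7 and 26 CPM at day 1 (0.94 ± 0.22, edgeR adjusted p = 0.00577), while the ratios in the other lines were -0.02 in f/f, -0.00 in KO and -0.02 in KO+WT, and its difference from them, 0.96 ± 0.25, had an unadjusted p of 0.00279 in edgeR's test of the difference and did not pass adjustment. In these bulk samples, fewer cells of a type and less RNA per cell cannot be told apart.

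Of 11 PRC2 subunits tested, 3 rose, 2 fell and 6 did not pass. These counts, and those of PRC1, lie near the backgrounds of 19.4% higher and 19.6% lower over all genes. Jarid2, which guides PRC2 to its sites, had 366 and 360 CPM at 3i and 823 and 811 CPM at day 1 (1.18 ± 0.15, edgeR adjusted p = 0.000133), with ratios of 1.57 in f/f, 1.56 in KO and 1.23 in KO+WT, and was back at its 3i level on day 2 (log2 ratio 0.01). Ezh1, the less active of the 2 methyltransferase subunits, had 55.4 and 51.3 CPM at 3i and 31.1 and 31.9 CPM at day 1 (-0.77 ± 0.12, edgeR adjusted p = 0.00059). Phf19 and Phf1, both Polycomb-like subunits, went opposite ways (1.44 ± 0.39 and -0.90 ± 0.24, edgeR adjusted p = 0.0122 and 0.0126, the latter 0.0829 without replicate 1), and Aebp2 rose by 0.45 ± 0.11 (edgeR adjusted p = 0.0069). Mtf2, the Polycomb-like subunit with the highest level in these cells, had 414 and 412 CPM at 3i and 338 and 334 CPM at day 1 and did not pass (edgeR adjusted p = 0.0523), though it did without f/f (0.0383) or KO+WT (0.0439), without the filter (0.0318) or with library totals alone (0.0218).

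Of 20 subunits of PRC1, the Polycomb complex that ubiquitinates histone H2A, 5 rose and 5 fell, though 1 in place of 5 was called lower without replicate 1. Kdm2b, which brings a variant PRC1 to CpG islands, had 138 and 138 CPM at 3i and 395 and 403 CPM at day 1 (1.54 ± 0.16, edgeR adjusted p = 3.65e-05). Phc1, a Polyhomeotic subunit, had 428 and 401 CPM at 3i and 851 and 842 CPM at day 1 (1.03 ± 0.13, edgeR adjusted p = 0.000151), and L3mbtl2, of another variant complex, 122 and 123 CPM at 3i and 278 and 280 CPM at day 1 (1.19 ± 0.11, edgeR adjusted p = 2.19e-05). SCF ubiquitin ligase genes gave 6 higher (3 with library totals as the only scaling) and 2 lower of 12. The backgrounds over all genes were 19.4% higher and 19.6% lower. Cul1, the cullin scaffold that binds SKP1A, rose from 96.9 and 91.3 CPM to 170 and 161 CPM (0.83 ± 0.10, edgeR adjusted p = 0.00011), and Btrc, an F-box receptor, fell from 77.9 and 70.1 CPM to 45.9 and 46.9 CPM (-0.68 ± 0.13, edgeR adjusted p = 0.00223).

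Genes that Polycomb is known to silence were mostly near or below the detection filter. Of 45 listed outside the Hox clusters, 33 were tested, 9 rose and 2 fell, against backgrounds of 19.4% and 19.6% over all genes. Their median log2 ratio was 0.61 in KO+N-KR, -0.03 in f/f, 0.37 in KO and -0.37 in KO+WT, and their summed level went from 83.7 to 166 CPM in KO+N-KR, 94.9 to 157 in f/f, 88.4 to 184 in KO and 111 to 172 in KO+WT. In edgeR's test of the difference no member of the list passed adjustment, and 3 of 33 had an unadjusted p under 0.05. Wt1, a zinc finger factor of kidney and gonad, took part of that sum, with 0.495 and 0.57 CPM at 3i and 32.9 and 36.2 CPM at day 1 (6.01 ± 0.36, edgeR adjusted p = 1.17e-06) and ratios of 7.63 in f/f, 6.35 in KO and 7.21 in KO+WT, all above the 5.80 of KO+N-KR. Those ratios start from 3i levels near 0 (0.08 CPM in f/f, 0.08 in KO and 0.22 in KO+WT, against 0.52 in KO+N-KR). At day 1 the level of Wt1 was 34 CPM in KO+N-KR, 34.15 in f/f, 14.25 in KO and 45.26 in KO+WT. Gata2, a blood and trophoblast factor, fell from 12.6 and 10.4 CPM to 0.642 and 1.72 CPM (-3.44 ± 0.81, edgeR adjusted p = 0.00629).

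Of 14 Hox genes, 11 were tested, 4 fell and none rose (backgrounds 19.6% lower and 19.4% higher over all genes). Their summed level was 14.8 CPM at 3i and 5.02 CPM at day 1. Hoxc13 had the highest 3i level of the 4 that fell, with 6.11 and 5.24 CPM at 3i and 0.642 and 0.736 CPM at day 1 (-3.06 ± 0.59, edgeR adjusted p = 0.00187). The others were Hoxb9, Hoxc4 and Hoxb13, none of which passed without the f/f samples (edgeR adjusted p = 0.0535, 0.0699 and 0.0999). Without replicate 2, Hoxc4 (0.0743) and Hoxb13 (0.0739) did not pass, nor did Hoxb13 without replicate 1 (0.0726). In the other lines the median log2 ratio of these genes was -1.08 in f/f, -0.93 in KO and -1.68 in KO+WT, and in KO+N-KR it was -0.98.

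Markers of the feeder fibroblasts fell as well. Of 16 listed, 15 were tested, 9 fell and none rose (backgrounds 19.6% lower and 19.4% higher over all genes). Their summed level went from 485 to 107 CPM in KO+N-KR (559 to 63.9 in f/f, 535 to 89.7 in KO, 811 to 120 in KO+WT). Acta2, smooth muscle actin, had 33.2 and 35 CPM at 3i and 0.241 and 0.123 CPM at day 1 (-7.40 ± 0.54, edgeR adjusted p = 3.94e-06), and Tagln, another contractile gene, 26.5 and 24.3 CPM at 3i and 1.2 and 0.982 CPM at day 1 (-4.50 ± 0.40, edgeR adjusted p = 1.46e-05). Col1a1, the main fibrillar collagen, had 212 and 206 CPM at 3i and 33.2 and 28.2 CPM at day 1 (-2.73 ± 0.25, edgeR adjusted p = 1.61e-05) and so kept a part of its level, while Lum had no read at day 1. The other 6 tested did not pass, among them Col6a1, a collagen of the cell surface matrix, with 8.91 and 9.35 CPM at 3i and 7.79 and 8.1 CPM at day 1. Of the 15, 9 were reduced less in KO+N-KR than in each other line (background 25.5% of all genes). In edgeR's test of the difference, 4 of the 15 were higher in KO+N-KR with an unadjusted p under 0.05 (background 2.28%). None passed adjustment. The part of these cells in the falls of the immediate early and YAP-responsive genes, and in the falls of Lox and Ccdc80 below, was not tested.

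Beyond the lists, the 12 genes with the largest rises among those with at least 20 CPM were Vrtn, Wt1, Spna1, Grhl2, Enpp2, Pou3f1, Enox1, Myc, Pla2g7, Lef1, Bnc2 and Pcdh1, with log2 fold changes from 4.25 (Pcdh1) to 6.87 (Vrtn). Grhl2, a Grainyhead factor that opens epithelial enhancers in the formative state, had 3.3 and 5.01 CPM at 3i and 121 and 123 CPM at day 1 (4.93 ± 0.26, edgeR adjusted p = 4.3e-07), and its ratios elsewhere were 4.23 in f/f, 3.49 in KO and 3.90 in KO+WT. Enpp2, the secreted enzyme autotaxin that makes lysophosphatidic acid, had 4.04 and 3.53 CPM at 3i and 108 and 106 CPM at day 1 (4.81 ± 0.26, edgeR adjusted p = 4.34e-07). Spna1, an erythroid spectrin, had 1.07 and 1.82 CPM at 3i and 58.5 and 57.7 CPM at day 1 (5.39 ± 0.26, edgeR adjusted p = 2.98e-07). Each of the 12 rose in the fit of the other 3 lines as well, by 3.58 (Bnc2) to 7.90 (Wt1).

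The 12 with the largest falls were Acta2, Fosb, Fos, Aqp3, Ly6g6e, Padi2, Tagln, A2m, Lox, Grin1, S100a13 and Ccdc80, from -4.08 (Ccdc80) to -7.40 (Acta2). Aqp3, a water and glycerol channel, had 63.9 and 59.1 CPM at 3i and 2.17 and 1.96 CPM at day 1 (-4.88 ± 0.43, edgeR adjusted p = 1.35e-05), and Padi2, a peptidylarginine deiminase, 37.5 and 37.5 CPM at 3i and 1.45 and 1.59 CPM at day 1 (-4.63 ± 0.28, edgeR adjusted p = 1.29e-06). Lox, lysyl oxidase of the extracellular matrix, went from 61.7 and 61 CPM to 2.65 and 3.68 CPM (-4.32 ± 0.22, edgeR adjusted p = 3.38e-07). All 12 fell in the other 3 lines too, by -3.27 (Grin1) to -7.56 (Fosb). Genes just inside the size rule that missed the test numbered 4 upward and 10 downward. Id2, a BMP target, was the most abundant of those listed, with 38.4 and 37 CPM at 3i and 17.9 and 17.7 CPM at day 1, a log2 fold change of -1.08 ± 0.52 (edgeR adjusted p = 0.125) and ratios of -0.40 in f/f, -1.78 in KO and -1.86 in KO+WT. Prph, Rbm20 and Dusp5 upward, and Atp12a, Fosl2, Cyp4f39, Tgfbr3 and Dmpk downward, had log2 fold changes from -1.39 (Atp12a) to 1.07 (Prph).

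With edgeR on the 12 summed samples, no gene's day 1 change was shown to differ between KO+N-KR and the other lines. In edgeR's quasi-likelihood test of that difference 0 genes passed in either direction, 729 (4.69%) had an unadjusted p under 0.05 and the lowest adjusted p was 0.0642. DESeq2 called 1 gene, Igfbp2, and had 335 under an unadjusted p of 0.05. Igfbp2 encodes a secreted binding protein for insulin-like growth factors. It had 880 and 866 CPM at 3i and 290 and 282 CPM at day 1, a log2 fold change of -1.60 ± 0.11 against -0.61 in the other lines, and the difference was -0.99 ± 0.12 (edgeR adjusted p = 0.0642, and 4.22e-07 in DESeq2). With edgeR its difference passed when replicate 1 or replicate 2 was left out of every group (adjusted p = 0.00621 and 0.0369). KO+N-KR had the highest 3i level of the 4 lines (864 CPM, against 607, 499 and 615 in f/f, KO and KO+WT) and the lowest day 1 level (286, against 379, 363 and 384). At day 2 it stood at 697 CPM, between f/f (658) and KO+WT (754).

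The next lowest p-values for a change further down in KO+N-KR belonged to Slc1a4, a transporter of neutral amino acids, and Rnf157, a ubiquitin ligase. Slc1a4 had 62 and 58.2 CPM at 3i and 18.8 and 21.2 CPM at day 1, a log2 fold change of -1.60 ± 0.13 with a difference of -0.86 ± 0.14 from the other lines (unadjusted p = 8.44e-05, edgeR). Rnf157 had 33.1 and 29.1 CPM at 3i and 7.63 and 4.91 CPM at day 1 and a difference of -0.97 ± 0.20 (unadjusted p = 0.000444, edgeR). On the other side stood Cald1, Igf2 and Ccnd1. Cald1, the actin-binding caldesmon, had 66.2 and 66.6 CPM at 3i and 83.2 and 76.5 CPM at day 1 while its ratios in the other lines were -0.60 in f/f, -0.42 in KO and -0.46 in KO+WT, a difference of 0.77 ± 0.15 (unadjusted p = 0.000315, edgeR). Igf2, the imprinted growth factor, had a log2 fold change of -0.59 ± 0.21, against -1.82 in the other lines (unadjusted p = 0.00032, edgeR), and its own fall did not pass without replicate 2 (edgeR adjusted p = 0.154) or without KO+WT (0.0707). Ccnd1, cyclin D1, had 65.3 and 60 CPM at 3i and 202 and 182 CPM at day 1 (1.63 ± 0.13, against 0.91, unadjusted p = 0.000362, edgeR). None of these 5 passed adjustment.

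Of the 39 gene lists, the glycolysis and hypoxia genes and the genes of amino acid supply and the integrated stress response are described further, chosen after their values were seen. Glycolysis turns glucose into pyruvate and lactate, and its enzymes are induced by hypoxia-inducible factor, which binds the core ACGTG. The integrated stress response raises the factor ATF4, which induces amino acid enzymes and transporters through C/EBP-ATF response elements (CARE, here TGATGNAA). Most members of both lists fell, and promoters that hold these letters are shown for 3 genes of the stress response and 2 of glycolysis, from RefSeq on GRCm38.p6, from 250 bases before to 50 after the annotated start. Only matches to the motif of the gene's own list (CARE or ACGTG), on either strand, are in capitals. The ACGTG that Asns holds on the other strand therefore stays in lower case.
Chac1, chr2:119350992-119351291, plus strand: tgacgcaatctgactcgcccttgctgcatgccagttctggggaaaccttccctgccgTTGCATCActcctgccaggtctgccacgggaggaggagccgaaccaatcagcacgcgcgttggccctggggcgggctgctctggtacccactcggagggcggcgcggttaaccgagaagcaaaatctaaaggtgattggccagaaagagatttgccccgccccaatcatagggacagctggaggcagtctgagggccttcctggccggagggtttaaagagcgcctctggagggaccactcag
Asns, chr6:7693160-7693459, minus strand: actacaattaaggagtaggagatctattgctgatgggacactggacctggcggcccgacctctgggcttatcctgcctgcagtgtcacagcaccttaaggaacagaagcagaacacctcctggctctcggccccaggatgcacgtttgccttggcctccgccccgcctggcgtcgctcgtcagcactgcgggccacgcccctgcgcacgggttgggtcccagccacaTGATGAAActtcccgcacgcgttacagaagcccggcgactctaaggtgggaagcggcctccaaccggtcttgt
Trib3, chr2:152344011-152344310, minus strand: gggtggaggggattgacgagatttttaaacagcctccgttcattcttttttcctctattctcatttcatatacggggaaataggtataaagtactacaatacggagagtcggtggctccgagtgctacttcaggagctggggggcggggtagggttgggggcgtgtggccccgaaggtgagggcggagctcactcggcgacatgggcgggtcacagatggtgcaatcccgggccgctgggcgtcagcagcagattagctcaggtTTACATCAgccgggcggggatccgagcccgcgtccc
Pgk1, chrX:106186850-106187149, plus strand: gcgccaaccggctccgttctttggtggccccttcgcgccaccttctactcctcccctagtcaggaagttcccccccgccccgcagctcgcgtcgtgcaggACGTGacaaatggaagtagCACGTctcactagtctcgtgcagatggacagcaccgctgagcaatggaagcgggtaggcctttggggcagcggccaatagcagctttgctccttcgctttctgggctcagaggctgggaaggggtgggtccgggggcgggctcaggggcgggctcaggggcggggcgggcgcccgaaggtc
Ldha, chr7:46845554-46845853, plus strand, 1 of its 2 promoters: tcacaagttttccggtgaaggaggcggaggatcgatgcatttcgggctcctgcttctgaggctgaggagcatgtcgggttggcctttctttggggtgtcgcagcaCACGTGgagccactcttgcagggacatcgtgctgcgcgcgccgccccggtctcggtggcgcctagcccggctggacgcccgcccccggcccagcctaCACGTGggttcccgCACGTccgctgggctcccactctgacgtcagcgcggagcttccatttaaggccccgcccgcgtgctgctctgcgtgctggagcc

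The CARE letters occurred in 3.97% of all 32851 promoters of this length and in at least 1 promoter of 4.51% of the 27025 genes these belong to, in promoters of 4 of the 11 listed stress response genes found there, and in 3 of the 8 that fell. Chac1, Asns and Trib3 had 1 match each. ACGTG occurred in 19.6% of all promoters, in at least 1 promoter of 21.8% of the genes, and in promoters of 12 of the 16 listed glycolysis and hypoxia genes found there. Pgk1 had 2 matches, and Ldha had 5, of which 2 pairs overlapped on opposite strands. No match to 1 motif overlapped a match to the other. These are matches of letters, not binding sites, and the build is not that of the authors' counts.

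Glycolysis and hypoxia genes fell in 13 of 16 tested cases and rose in 1, with 2 not past (backgrounds 19.6% lower and 19.4% higher). Pgk1, phosphoglycerate kinase, had 1788 and 1774 CPM at 3i and 835 and 846 CPM at day 1 (-1.08 ± 0.09, edgeR adjusted p = 7.78e-06), and Pfkl, phosphofructokinase, 533 and 516 CPM at 3i and 265 and 259 CPM at day 1 (-0.99 ± 0.09, edgeR adjusted p = 1.63e-05). Aldoa and Ldha, aldolase and lactate dehydrogenase, fell, with log2 fold changes of -0.93 ± 0.08 and -0.70 ± 0.09 (edgeR adjusted p = 1.51e-05 and 0.000191). The glucose transporter Slc2a1 had 682 and 674 CPM at 3i and 392 and 390 CPM at day 1 (-0.79 ± 0.20, edgeR adjusted p = 0.0105), while its ratios in the other lines were 0.06 in f/f, 0.48 in KO and -0.18 in KO+WT. Vegfa, the angiogenic growth factor, had the largest fall of the list, with 144 and 137 CPM at 3i and 17.5 and 16.4 CPM at day 1 (-3.04 ± 0.46, edgeR adjusted p = 0.000452), and Bnip3, a mitophagy receptor, had 224 and 221 CPM at 3i and 88.5 and 94 CPM at day 1 (-1.29 ± 0.21, edgeR adjusted p = 0.000632). Ddit4, an inhibitor of mTORC1, fell, with a log2 fold change of -1.22 ± 0.34 (edgeR adjusted p = 0.0155), with ratios of -0.58 in f/f, 0.70 in KO and -0.18 in KO+WT. Pdk1, the kinase that turns off pyruvate dehydrogenase, rose by 0.59 ± 0.11 (edgeR adjusted p = 0.002).

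The change of all 16 lay below the mean change of the other lines, for 13 of them below each single line (background 27.5% of all genes), and for 11 with an unadjusted p under 0.05 (background 2.41%). Of all 15558 genes tested, 8053 lay below the mean change of the other lines. None of the 16 passed adjustment, and their median difference was -0.39. The list was chosen after its values were seen, its members are not independent, and the background holds many genes that did not fall. These shares are therefore given as a description. The summed level of the list fell from 15536 to 9171 CPM in KO+N-KR, against 15391 to 11268 in f/f, 11715 to 9447 in KO and 13466 to 10052 in KO+WT. KO+N-KR thus had the highest 3i sum and the lowest day 1 sum, and on day 2 its sum was 14311 CPM.

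Genes of amino acid supply and the integrated stress response gave 8 lower and 1 higher of 12 (backgrounds 19.6% and 19.4%). Chac1, which breaks down glutathione, had 39.6 and 38.8 CPM at 3i and 4.33 and 5.16 CPM at day 1 (-3.06 ± 0.51, edgeR adjusted p = 0.000781), with ratios of -1.09 in f/f, -0.39 in KO and -1.94 in KO+WT. Trib3, a pseudokinase induced by ATF4, had 45.9 and 44.3 CPM at 3i and 12.9 and 11.8 CPM at day 1 (-1.85 ± 0.29, edgeR adjusted p = 0.00048), and Asns, asparagine synthetase, 1025 and 1034 CPM at 3i and 210 and 212 CPM at day 1 (-2.28 ± 0.23, edgeR adjusted p = 2.79e-05). Asns fell as far in KO+WT as here (log2 ratios in the other lines -1.48 in f/f, -1.94 in KO and -2.35 in KO+WT), so that not all members lay lowest in KO+N-KR. Atf4 itself had 333 and 338 CPM at 3i and 180 and 187 CPM at day 1 (-0.87 ± 0.12, edgeR adjusted p = 0.000247), Phgdh, the first enzyme of serine synthesis, 192 and 188 CPM at 3i and 94.1 and 95.7 CPM at day 1 (edgeR adjusted p = 0.000132), and Slc7a11, the cystine transporter, rose by 0.65 ± 0.12 (edgeR adjusted p = 0.00113).

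All 12 lay below the mean change of the other lines, 9 below each single line (background 27.5% of all genes) and 6 with an unadjusted p under 0.05 (background 2.41%). Of all 15558 genes tested, 8053 lay below the mean change of the other lines. None of the 12 passed adjustment, and their median difference was -0.43. This list too was chosen after its values were seen, so its shares are a description with the same limits. Their summed level went from 3036 to 1594 CPM in KO+N-KR, 3269 to 2517 in f/f, 2918 to 2272 in KO and 3166 to 1803 in KO+WT. KO+WT thus lay nearer to KO+N-KR than f/f and KO did.

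**Figure D3:**
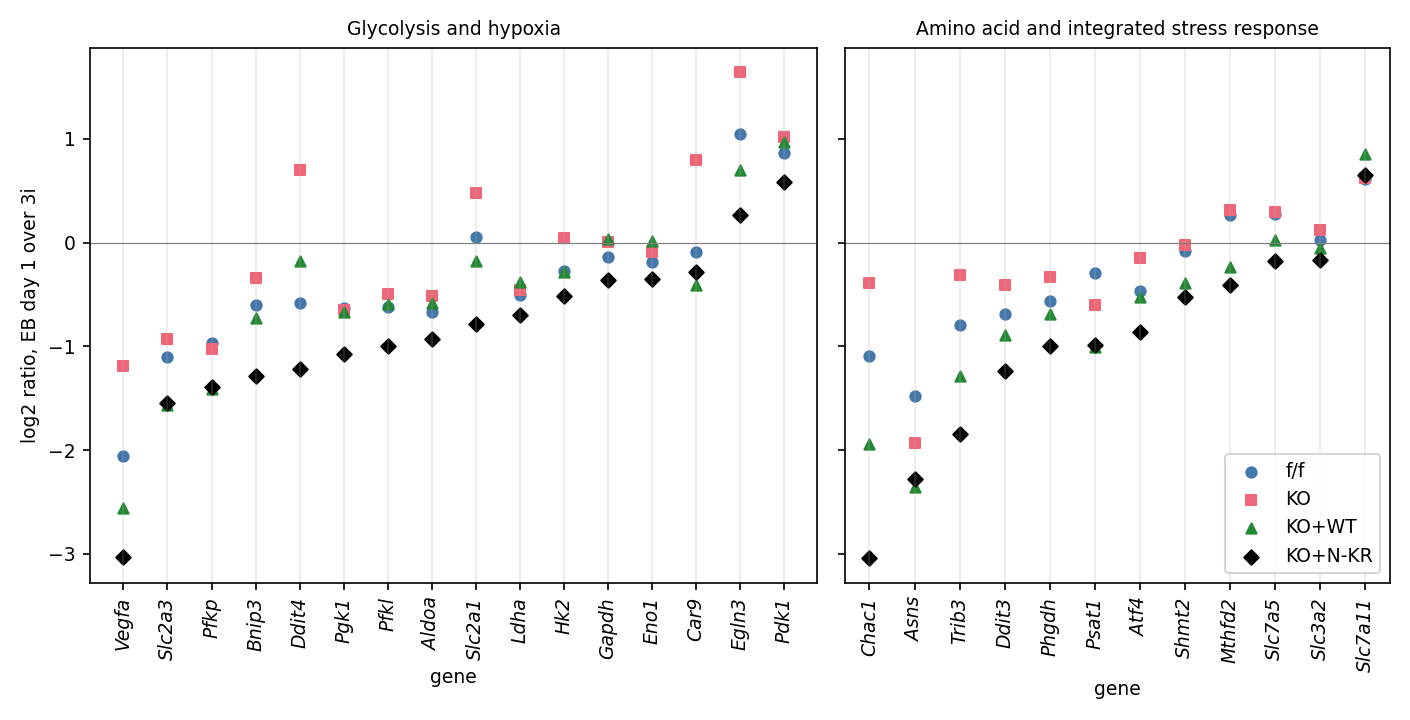
For each tested gene of 2 lists (x axis), the y axis gives the log2 ratio of day 1 over 3i in f/f (circles), KO (squares), KO+WT (triangles) and KO+N-KR (diamonds), 1 sample per line and state. The diamonds are lowest for 13 of 16 genes on the left and 9 of 12 on the right.

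**Figure D4:**
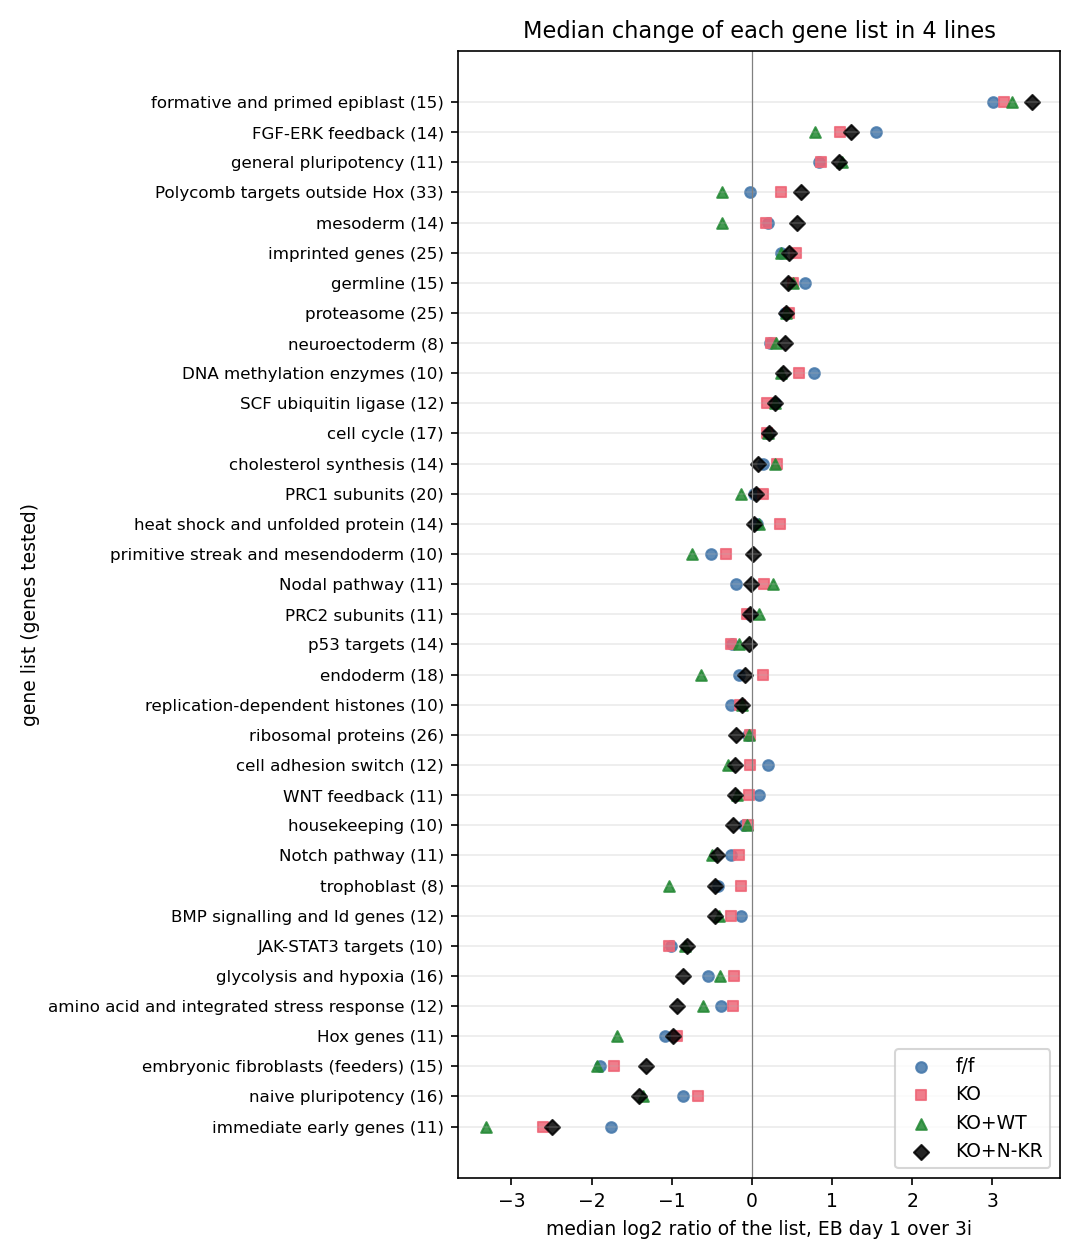
Each row is a gene list with at least 8 genes tested (their number in brackets), and the x axis gives the list's median log2 ratio of day 1 over 3i in each line, 1 sample per line and state. Formative and primed epiblast genes are highest in every line (3.50 in KO+N-KR). Immediate early genes are lowest in KO+N-KR (-2.49), KO and KO+WT, with the feeder list lowest in f/f (-1.89), and KO+N-KR has the lowest median for the glycolysis and hypoxia list (-0.86) and for the amino acid list (-0.93).

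On day 2, the size-called genes of day 1 were still shifted from 3i in most cases. Of the 671, 416 (62.0%) remained at least 2-fold above 3i and 32 were below it, and of the 977, 590 (60.4%) remained at least 2-fold below and 46 were above. Both days are measured against the same 3i sample, so these counts describe that sample as much as the 2 days. Klf4 was lower still on day 2 (log2 ratio over 3i -4.81, against -3.52 on day 1), Nanog stood at -1.96 (against -1.77) and Dnmt3b at 4.44 (against 3.93). Pgk1, in contrast, was close to its 3i level again, with -0.23 against -1.08.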

How the data were processed

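Poly(A) RNA of 24 libraries in 12 groups was counted per gene by the authors, who deposited 1 table of raw counts (30 columns, 23284 gene symbols). Of its columns, 24 match the labels and were used, and 6 were not used. Per the submitters' processing notes, STAR 2.5.2b and DESeq2 were used with build mm9. No source used here gives the counting tool, strand setting or annotation. Reads of antisense or overlapping genes, and of copies such as Zscan4, may therefore be mixed.

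The 2 libraries of a group were summed (12 samples of 18017598 to 25160294 counts) and tested with edgeR 4.0.16 in R 4.3.3 (TMM, filterByExpr, quasi-likelihood), with terms for line, state and the KO+N-KR changes at day 1 and day 2. This left 15558 genes, 4 residual degrees of freedom and a common coefficient of variation of 7.88%. Log2 ratios per line used a prior count of 2. Library levels were TMM-scaled over the 24 libraries and sample levels over the 12 samples, so the latter can lie slightly outside the former. Medians with genes at 0 reads set to their floor were the same to 2 decimals. The fit was tested on simulated counts of well-counted genes. There the test of the difference found 25% of 200 genes changed 1.5-fold and 83% of 200 changed 2-fold. It can therefore miss most differences of 1.5-fold or less. The simulated counts had no spread particular to a gene, so the shares found in the data may be lower. In the data, Igfbp2 did not pass with a log2 difference of -0.99. The absence of calls therefore does not show that differences of 2-fold are absent. DESeq2 1.42.0, other scalings and filters, and fits without a replicate, line or day were alternatives.

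Named genes were Eed, Skp1a, the 12 largest changes each way (at least 20 CPM, gene models without a proper name left out), from each list some of the 5 largest changes that passed and of the 2 most abundant that did not, the 3 lowest p-values each way for the difference, and up to 6 genes each way called by size alone. Of those not under this rule (such as Nanog, Esrrb, Pou5f1, Sox2, Otx2, Nr0b1, Dusp6, Fosl1, Aldoa, Ldha, Pfkl, Slc2a1, Atf4, Pdk1 and Slc7a11) the values were seen first. The comparison, the members and the lists were chosen with earlier results of these data known. In every group the library names of replicate 1 and replicate 2 carry different prefixes, whose meaning the labels do not give. Same-numbered libraries showed hardly any shared shift.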

Additional observations from a re-analysis of the deposited data

How the results depend on the processing

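Each KO+N-KR state is 1 sample, so the p-values rest on the spread of the other lines and show nothing about repeat cultures. The 24-library fits use noise near that of repeated sequencing. As 12 groups of 2 they called 4747 genes higher and 4993 lower at day 1, and 982 and 1218 for the difference from the other lines. With the replicate block the counts were 4758 and 5005, and 1007 and 1250. Same-numbered libraries showed hardly any shared shift. Their deviations from their group means correlated by 0.00688 between the 2 states, and by -0.0246 to 0.0496 over 66 pairs of groups. The additive design of line and state, in which the change is a mean over the 4 lines, called 4938 and 5046, and in it Ddit4, Krt8 and Slc2a1 were no longer called.

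For the difference, 1 gene was called lower by DESeq2, by edgeR without the filter on low counts, and by edgeR without replicate 1 or without replicate 2. The adjusted p of Igfbp2 over the edgeR alternatives on summed samples ran from 0.00202 (no filter) to 0.327 (without KO+WT), and was 0.121 with library totals alone, 0.229 without f/f, 0.21 without KO and 0.0604 without day 2. By size, a minimum of 1 CPM gave 1045 higher and 1523 lower. DESeq2 called 2553 and 2226 genes at day 1 and lost Klf2, Klf5, Fosl1, Hoxb13, Hoxc4 and Igf2.

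Several genes that did not pass changed sign, all but Cald1 of them near 0. Skp1a was at -0.0149 without replicate 1, 0.00411 without replicate 2, 0.00554 without KO, 0.00541 without KO+WT, 0.0206 without day 2, 0.0357 in the additive design and 0.0169 in DESeq2. Fgf4 was at 0.0466 without replicate 1, -0.0337 without replicate 2, 0.00837 without KO, 0.00825 without KO+WT, 0.0234 without day 2, 0.0576 in the additive design and 0.0198 in DESeq2. With library totals alone Dnmt1 was at -0.0408, Nodal at -0.0193 and Uhrf1 at -0.00822. Dnmt1 was at -0.00454 without the filter, and Nodal at 0.122 without replicate 1 and -0.0137 without replicate 2. In the additive design Sall4 was at 0.00529, and Cald1 was at -0.28, which passed (adjusted p = 0.037), against 0.29 in KO+N-KR alone. Calls were gained as well as lost: of 159 values (changes of named genes and 6 differences from the other lines), 6 with library totals alone, 10 without the filter, 3 and 6 without replicate 1 and replicate 2, 6, 6 and 7 without f/f, KO and KO+WT, 9 without day 2 and 3 in DESeq2. The cause was not tested.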

Other observations

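Several gene groups outside the main account are given for day 1 in KO+N-KR (p-values are edgeR's). For all counts in this section, the backgrounds over all genes are 19.4% higher and 19.6% lower. Proteasome subunits rose in 21 of 25 cases and fell in none, by a median log2 ratio of 0.42 (0.42 in f/f, 0.47 in KO, 0.43 in KO+WT). Psmc1, an ATPase of the proteasome cap, had 214 and 196 CPM at 3i and 400 and 384 CPM at day 1 (0.94 ± 0.09, adjusted p = 1.89e-05). Ribosomal protein genes gave 0 higher and 11 lower of 26, with a median of -0.20, against -0.05, -0.03 and -0.03 in f/f, KO and KO+WT. The number called lower was 17 without the f/f samples and 3 without those of KO or of KO+WT. Rpl3 fell, with a log2 fold change of -0.35 ± 0.06 (adjusted p = 0.00141). Of 14 heat shock and unfolded protein genes 5 rose and 1 fell: Hspa8, a constitutive chaperone, had 3339 and 3248 CPM at 3i and 6835 and 6822 CPM at day 1 (1.06 ± 0.09, adjusted p = 7.77e-06), and Herpud1, a gene of ER-associated degradation, 29.5 and 27.1 CPM at 3i and 8.27 and 9.45 CPM at day 1 (-1.70 ± 0.28, adjusted p = 0.000704). Cell cycle genes gave 6 higher and 2 lower of 17, with Ccne1, cyclin E1, at 79.1 and 80.8 CPM at 3i and 269 and 270 CPM at day 1 (1.76 ± 0.11, adjusted p = 1.34e-06) and Cdkn1b, the inhibitor p27, at 80.4 and 81.4 CPM at 3i and 36.8 and 37.8 CPM at day 1 (-1.11 ± 0.18, adjusted p = 0.000644). Of 14 p53 targets 1 rose and 5 fell, and Cdkn1a, the inhibitor p21, had 119 and 111 CPM at 3i and 41.3 and 45.3 CPM at day 1 (-1.43 ± 0.13, adjusted p = 1.79e-05).

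Imprinted genes split, with 8 higher and 5 lower of 25. Peg3, paternally expressed, had 115 and 113 CPM at 3i and 959 and 955 CPM at day 1 (3.07 ± 0.14, adjusted p = 2.48e-07), and Plagl1, also paternally expressed, 167 and 156 CPM at 3i and 10.8 and 12.2 CPM at day 1 (-3.83 ± 0.31, adjusted p = 6.98e-06), with ratios of -3.89 in f/f, -3.32 in KO and -4.19 in KO+WT. Adhesion genes gave 4 higher and 3 lower of 12: Fn1, fibronectin, fell from 3158 and 3099 CPM to 991 and 992 CPM (-1.65 ± 0.16, adjusted p = 2.23e-05) and Epcam rose from 157 and 160 CPM to 308 and 314 CPM (0.98 ± 0.10, adjusted p = 4.25e-05). Cholesterol synthesis gave 2 higher and 1 lower of 14, with a median of 0.07. Germline genes gave 5 and 4 of 15, replication-dependent histones 0 and 1 of 10, and housekeeping genes 3 and 5 of 10, with Actb at 1398 and 1383 CPM at 3i and 2690 and 2672 CPM at day 1 (0.96 ± 0.08, adjusted p = 1.26e-05). None of 6 genes of the 2-cell-like state, among them near-identical Zscan4 copies, passed. Of the other cell types the aggregates could hold, endothelium and blood gave 0 and 1 of 3 tested, the 1 being Pecam1, which naive stem cells also express, and neurons 1 and 0 of 4.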
